A study of Homo sapiens with 6 samples.

Results

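The genes described here are 48 that mark hepatocytes, the main cells of the liver: 32 for proteins or surface antigens that hepatocytes or liver tumours make, most of them secreted, and 16 for transcription factors and nuclear receptors of the hepatocyte programme. They were picked by gene symbol, with no threshold on a measured value but with earlier results of these data known. They are the rows of the deposited table whose name is on that list, and all 48 were found among its 62753 genes. The table gives messenger RNA levels as FPKM, that is, reads divided by the length of the gene and the size of the library, in 6 libraries of a human cell line labelled HepG2 and described as hepatocellular carcinoma cells. The WT group (3 libraries) is unedited, and in the sgPARP1 group (3 libraries, genotype PARP1 KO) the PARP1 gene was targeted with CRISPR-Cas9. The sources used here do not say if the edited cells are 1 clone or a pool, or if each library is a culture of its own, so the p-values cover no more than the spread among these 6 libraries, possibly a technical one. Libraries hold 14842498 to 17305129 reads assigned to genes, as recovered from the FPKM values.

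A hepatocyte fills the blood with albumin, carrier proteins, clotting factors, protease inhibitors and the apolipoproteins that coat fat particles. These genes are switched on together by a small set of factors that bind each other's promoters and enhancers: the HNF1, HNF4, FOXA, ONECUT and C/EBP families, with nuclear receptors that sense bile acids, drugs and lipids and often pair with RXR. HepG2 is widely used as a liver model because it is known to keep secreting albumin, alpha-fetoprotein, transferrin and apolipoproteins, so the levels of these genes in WT serve as a check of the cell line before the 2 groups are compared.

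In WT, hepatocyte secreted proteins were close to absent from the values, which goes against the label HepG2. Of the 32 secreted or surface protein genes, 2 had a WT mean of at least 0.5 FPKM, 12 others had at least 1 read in a WT library, and 18 were listed at 0 in all 3. Together the 32 took 94, 99 and 64 reads in the WT libraries, 0.000431% to 0.000576% of each, and most of these fell on the same 2 genes. For scale, 52.1% of all 20069 protein-coding genes reached 0.5 FPKM in WT, and the median protein-coding gene stood at 0.726 FPKM.

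The 2 genes above that level were VTN and APOE. VTN encodes vitronectin, an adhesion protein of plasma and matrix, and was at 1.58, 1.52 and 0.907 FPKM in WT (52, 50 and 26 reads). APOE encodes apolipoprotein E, a lipid carrier that many cell types besides hepatocytes make, and was at 0.807, 0.779 and 0.524 FPKM (30, 29 and 17 reads). Neither is high: VTN exceeded 53.8% of protein-coding genes and APOE 49.9%. VTN (chromosome 17, 28367284 to 28373091, minus strand, hg38) is covered along its whole length by other annotated genes, among them SARM1 on the other strand at 0.502 FPKM in WT, and reads of overlapping genes cannot be told apart in these values.

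The remaining secreted protein genes with reads carried very few. AMBP, the precursor of alpha-1-microglobulin and bikunin, had the next highest mean over the 6 libraries, with 2, 9 and 3 reads in WT and 0, 3 and 3 in sgPARP1 (0.061, 0.274 and 0.105 FPKM in WT). Clotting factor gene F10 had 6, 4 and 1 reads in WT and 5, 2 and 5 in sgPARP1. SERPINC1, the gene of antithrombin, had 0, 3 and 0 reads in WT and 2, 4 and 3 in sgPARP1. No order between the groups can be read from such counts. RBP4 had 1, 0 and 3 reads in WT and 2, 1 and 0 in sgPARP1, and APOA2 had 4 reads, all in WT replicate 3. The retinol carrier RBP4, the apolipoproteins APOA1 and APOA2, the inter-alpha-trypsin inhibitor chains ITIH1 and ITIH2, the fibrinogen chains FGA and FGG, the haem and haemoglobin binders HPX and HP, prothrombin (F2), plasminogen (PLG) and transferrin (TF) had 1 to 13 reads each over all 6 libraries. All 15 genes of this kind were under 0.5 FPKM and were not tested.

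The 15 secreted or surface protein genes listed at 0 in every library include main products of liver and of liver tumours. Among them are albumin (ALB) and alpha-fetoprotein (AFP), the fetal albumin relative that marks liver tumours. The surface proteoglycan GPC3, another liver tumour antigen, is also among them. The others are the apolipoproteins APOB, which forms the frame of low-density lipoprotein, APOC3 and APOH, the thyroxine carrier TTR, the protease inhibitor SERPINA1, the fibrinogen beta chain FGB, the clotting factors F5, F7 and F9, the fetuins AHSG and FETUB, and ITIH3. Of the fibrinogen genes, whose 3 chains form 1 protein, FGB was thus listed at 0 while FGA had 2 reads and FGG 6 over the 6 libraries. Of 9 other glypican and syndecan genes, whose proteins carry the same kind of sugar chain as GPC3, 6 reached 0.5 FPKM in WT. The glypicans, the family of GPC3, were divided. GPC1 at 10.3 FPKM and GPC5 at 4.22 FPKM reached that level, GPC2 stood at 0.381 FPKM, and GPC4 and GPC6 were listed at 0. The others that reached it were syndecans, led by SDC2 at 45.0 FPKM.

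**Figure D1:**
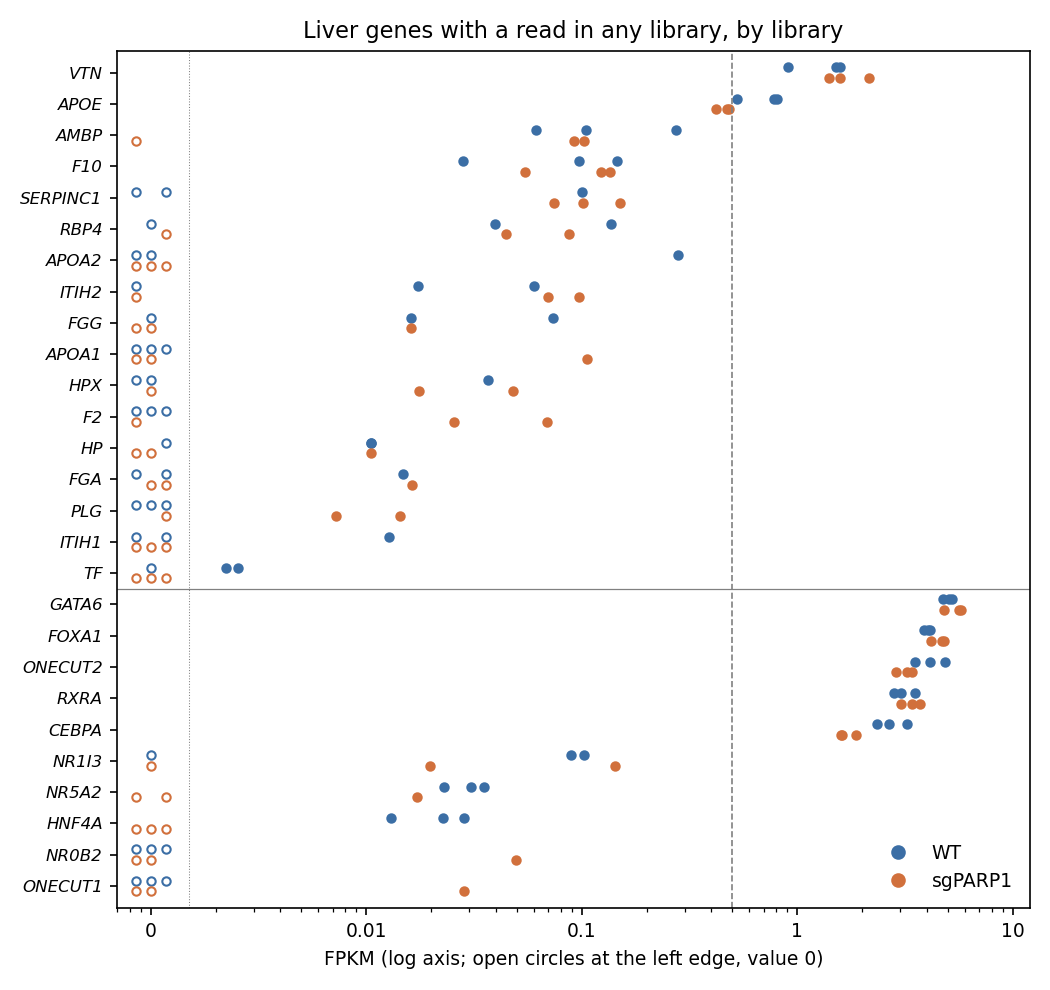
FPKM in each library (log axis, value 0 drawn as open circles spread slightly at the left edge) of the 27 genes with a read in any library, secreted or surface proteins above the line and transcription factors below it, WT in blue and sgPARP1 in orange, with a dashed line at 0.5 FPKM. VTN, APOE and 5 transcription factor genes stand apart from the other 20, which are all below 0.5 FPKM in every library, and the 21 genes listed at 0 throughout are not drawn.

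Many of these genes lie side by side on a chromosome. With the other plasma protein genes of a further list, they fall into 11 groups in which neighbours are at most 250000 bases apart. On chromosome 4, ALB, AFP and their neighbour AFM were all listed at 0. On chromosome 3, AHSG, FETUB, HRG and KNG1 were all listed at 0, and so were all 6 serpin genes around SERPINA1 on chromosome 14. In the APOA1 cluster of chromosome 11, APOA5, APOA4 and APOC3 were listed at 0 and APOA1 had 2 reads, both in sgPARP1 replicate 3. APOE was the exception in its cluster on chromosome 19, since its neighbour APOC1 had 2 reads and APOC4 and APOC2 were listed at 0. In the chromosome 13 group PROZ, of the further list, was at 0.819 FPKM in WT. Beside it F10 was at 0.0907 FPKM and F7 was listed at 0. PROZ was picked out after its value was seen.

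A listed 0 is not always a true 0 in this table. Of 49 genes that nearly every cell uses, 3 were under 0.5 FPKM in WT (6.12%): RPS9 and TUBB were listed at 0 in all 6 libraries and POLR2A, the large subunit of RNA polymerase II, stood at 0.238 FPKM. LDHA at 0.605 FPKM, RPS18 at 1.21 FPKM and EIF4A1 at 1.31 FPKM were also low, beside a median of 66.9 FPKM for this list and, for example, 577 FPKM for RPLP0. In a stretch of chromosome 6 (28503296 to 33457544, hg38) that holds TUBB, 144 of 183 protein-coding genes were listed at 0 (78.7%), against 23.4% of those elsewhere; no gene of the 48 lies in it. By comparison, 41 of the 48 hepatocyte genes were under 0.5 FPKM in WT (85.4%), and 23 of these 41 share no position with another annotated gene. The low POLR2A and RPS18 also share no position with another annotated gene, so a lack of overlap does not vouch for a low value. What lowers such values was not tested, so a single hepatocyte gene listed at 0 is given here only as listed at 0.

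The transcription factor genes were more often present. Of 16, 5 had a WT mean of at least 0.5 FPKM, with means between 2.75 and 5.03 FPKM, against a median of 5.06 FPKM over the 13167 genes tested. GATA6, a zinc finger factor of early endoderm, was at 5.24, 4.75 and 5.09 FPKM in WT, above 68.8% of protein-coding genes. ONECUT2, a homeodomain factor of liver and bile duct development, was at 3.53, 4.11 and 4.83 FPKM, and FOXA1, a pioneer factor that opens closed chromatin, at 4.13, 3.89 and 4.06 FPKM. RXRA, the partner of many nuclear receptors, was at 3.53, 2.81 and 3.04 FPKM. CEBPA, which drives differentiation of hepatocytes, fat cells and myeloid cells, was at 3.23, 2.67 and 2.35 FPKM. By their means the order was GATA6, ONECUT2, FOXA1, RXRA and CEBPA, in which GATA6 and ONECUT2 overlap in range, as do ONECUT2 and FOXA1, and RXRA and CEBPA. ONECUT2, with the widest range of the 5, also just overlaps RXRA. The lowest FOXA1 value lies above the highest RXRA value.

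The factors that are most specific to liver were not among them. HNF4A, the central regulator of the hepatocyte programme, had 5, 4 and 2 reads in WT (0.0285, 0.0228 and 0.0131 FPKM) and was listed at 0 in all 3 sgPARP1 libraries. The xenobiotic receptor NR1I3 had 5, 0 and 5 reads in WT, and NR5A2, a receptor that drives bile acid synthesis genes, 4, 3 and 4. The repressor NR0B2 and the homeodomain factor ONECUT1 had no read in WT, and 1 and 3 reads in sgPARP1 replicate 3. FOXA2, FOXA3, GATA4, PROX1, the bile acid receptor NR1H4 and the drug receptor NR1I2 were listed at 0 in all 6 libraries.

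In the FOXA and ONECUT families 1 member was above 0.5 FPKM in WT and the others were listed at 0 there. The relatives given next were picked out after their values were seen. FOXA1 stood at 4.03 ± 0.12 FPKM in WT (mean ± SD, n = 3) with FOXA2 and FOXA3 listed at 0, ONECUT2 at 4.16 ± 0.65 FPKM with ONECUT1 and ONECUT3 listed at 0 in WT, and GATA6 at 5.03 ± 0.25 FPKM with GATA4 listed at 0 and GATA2 at 12.4 to 13.5 FPKM. CEBPA, at 2.75 ± 0.45 FPKM, was far below its relatives CEBPD at 53.4 FPKM, CEBPB at 52.7 FPKM and CEBPG at 9.11 FPKM. RXRA, at 3.13 ± 0.37 FPKM, was accompanied by partners of wider use, VDR at 9.20 FPKM and the oxysterol receptors NR1H2 and NR1H3 at 16.3 and 5.52 FPKM, while RXRB, which lies in the chromosome 6 stretch named above, was listed at 0.

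Promoter sequence was looked at as a description of the present and the near-absent genes. RefSeq windows of 300 bases, from 250 before to 50 after the start (GRCh38.p14), were at hand for 36 of the 48 genes, those of GPC3, APOA1, APOB, APOC3, TTR, HP, ITIH2, SERPINC1, FOXA2, NR0B2, PROX1 and GATA4 not being used here. The following 4 were chosen after their values were seen, with every CpG dinucleotide in capitals. ALB (chr4:73404037-73404336, plus strand) and FGB (chr4:154562730-154563029, plus strand), both secreted protein genes, were listed at 0. CEBPA (chr19:33302485-33302784, minus strand) and FOXA1 (chr14:37595200-37595499, minus strand), both transcription factor genes, were above 2 FPKM in every WT library.
ALB: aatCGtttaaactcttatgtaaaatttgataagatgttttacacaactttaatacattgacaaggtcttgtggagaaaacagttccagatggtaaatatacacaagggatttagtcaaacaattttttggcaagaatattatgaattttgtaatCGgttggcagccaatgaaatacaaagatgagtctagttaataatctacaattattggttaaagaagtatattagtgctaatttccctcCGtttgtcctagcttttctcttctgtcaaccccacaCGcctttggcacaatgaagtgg
FGB: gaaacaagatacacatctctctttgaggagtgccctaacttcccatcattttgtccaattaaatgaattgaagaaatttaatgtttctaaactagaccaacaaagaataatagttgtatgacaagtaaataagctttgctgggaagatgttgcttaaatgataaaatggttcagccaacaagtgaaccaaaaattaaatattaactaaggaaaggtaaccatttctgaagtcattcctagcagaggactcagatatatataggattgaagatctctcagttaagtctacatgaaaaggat
CEBPA: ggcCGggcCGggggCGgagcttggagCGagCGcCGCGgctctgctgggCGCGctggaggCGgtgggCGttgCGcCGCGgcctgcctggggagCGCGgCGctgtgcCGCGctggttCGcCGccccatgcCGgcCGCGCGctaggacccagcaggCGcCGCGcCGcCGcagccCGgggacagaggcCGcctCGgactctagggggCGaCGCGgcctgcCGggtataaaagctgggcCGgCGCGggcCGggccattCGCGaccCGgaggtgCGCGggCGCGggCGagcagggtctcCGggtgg
FOXA1: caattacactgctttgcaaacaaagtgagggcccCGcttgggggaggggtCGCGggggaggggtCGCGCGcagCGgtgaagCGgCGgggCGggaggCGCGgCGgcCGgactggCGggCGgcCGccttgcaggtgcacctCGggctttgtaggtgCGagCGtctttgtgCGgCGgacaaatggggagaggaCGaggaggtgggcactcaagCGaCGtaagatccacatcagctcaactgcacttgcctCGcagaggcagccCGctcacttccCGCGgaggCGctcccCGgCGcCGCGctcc

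The ALB window holds 4 CpG dinucleotides and the FGB window 0, whereas the CEBPA window holds 50 and the FOXA1 window 34. Across the list, the ratio of observed to expected CpG was above 0.6, a usual mark of a CpG-rich promoter, in all 5 transcription factor genes present in WT (0.703 to 1.25) and in 2 of 24 secreted or surface protein genes, RBP4 and TF. Of all 35116 windows 48.8% were above 0.6, and of the 22198 windows of protein-coding genes, the kind all 48 belong to, 62.1%. CpG content alone did not separate the genes present in WT from the others. FOXA3 and ONECUT1, at ratios of 0.849 and 0.927, were listed at 0 in WT, and VTN and APOE, at 0.215 and 0.254, were present. By class, 7 of the 12 transcription factor windows were above 0.6, against 2 of the 24 secreted or surface protein windows. Gene class and presence in WT thus cannot be told apart here. The values come from the same 3 libraries, and this is a description with no test. Windows follow the RefSeq start, which for 27 of the 36 genes lies within 1000 bases of the 5′ end of the gene in the deposited table. For the other 9 it does not: the start lies downstream of that end by 1617 bases for NR1I2, 1630 for HPX, 2784 for VTN, 5083 for AFP, 7173 for ALB, 9357 for RXRA, 27110 for APOH and 29652 for NR1H4, and upstream of it by 84042 bases for TF, so these windows, ALB's among the 4 printed, may not be the start that the counted gene uses.

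**Figure D2:**
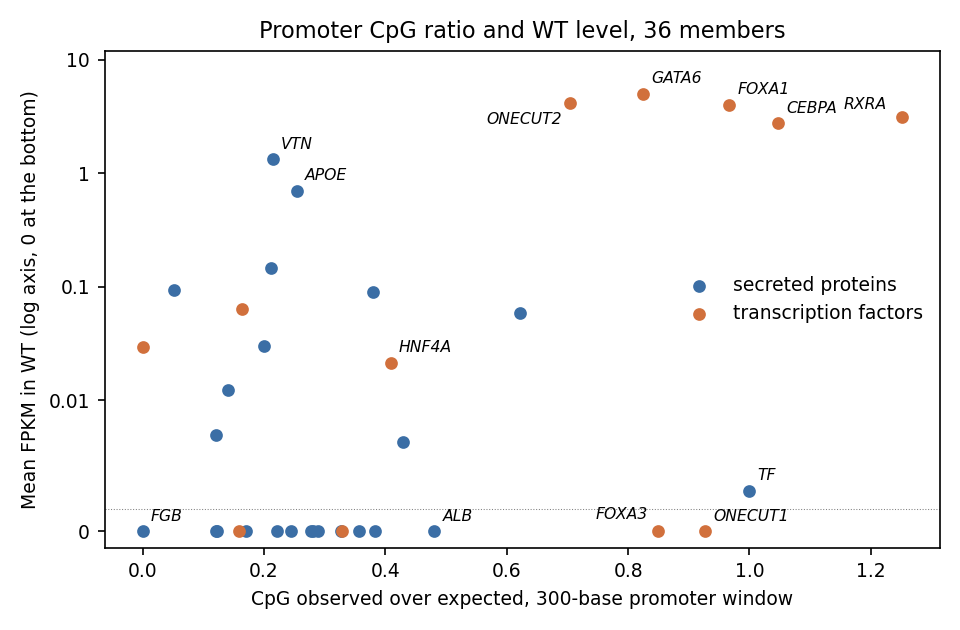
Mean WT FPKM (log axis, value 0 at the bottom) against the ratio of observed to expected CpG in the promoter window, for 24 secreted or surface protein genes (blue) and 12 transcription factor genes (orange). The 5 present transcription factor genes lie at the upper right, between 0.703 and 1.25, and VTN and APOE are the present genes below 0.6.

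Motifs were searched on both strands as exact letters, where N is any base. The HNF1 form GTTAATNAT was found in 4 of the 24 secreted or surface protein windows (16.7%), those of ALB, AFP, FGA and PLG, against 0.792% of all windows. In ALB it reads GTTAATAAT and begins 61 bases before the start. The HNF4 form CAAAGTCCA was found in AHSG and F10, against 0.384% of all windows. The C/EBP form TTGCNNAA was found in 7 of the 24 (29.2%), among them ALB, AFP and FGB, against 10.5% of all windows, and the TATA box TATAAA in 3 of 24 (12.5%) against 11.5%. In all 8 motifs were searched. The FOXA form TGTTTAC was found in 1 of the 24 against 3.42% of all windows and its second form TGTTTGC in 4 (16.7%) against 3.89%, the GATA form AGATAA in 6 (25%) against 10.3% and CCAAT in 12 (50%) against 34.6%. Of the 12 transcription factor windows, none held the HNF1 or the HNF4 form, RXRA held the C/EBP form and CEBPA, FOXA3 and NR5A2 held TATAAA. A match is a description of letters and not a measured binding site.

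Other liver genes, listed apart from the 48, were more often present in some groups than in others. Of 77 further plasma protein genes 14 reached 0.5 FPKM in WT (18.2%), among them complement C3 at 9.19 FPKM and the anticoagulant protein S (PROS1) at 8.09 FPKM. Of 73 hepatocyte enzymes and transporters 13 did (17.8%), among them at high levels the urea cycle enzymes CPS1 at 151 ± 1.8 FPKM and ASS1 at 46.8 ± 1.9 FPKM and the tyrosine-degrading enzyme HPD at 84.4 ± 4.2 FPKM. Of 47 further liver transcription factors 30 did, led by the orphan receptor NR2F6 at 82.6 FPKM, and of 16 lipoprotein handling genes 7 did, among them the HDL receptor SCARB1 at 26.4 FPKM. MTTP, which loads lipid onto apolipoprotein B, was listed at 0 in WT along with APOB itself.

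Markers of other cell types were looked at on the same scale. Of 12 epithelial markers 3 reached 0.5 FPKM in WT, with the keratins KRT8 at 268 FPKM and KRT18 at 255 FPKM, and of 10 bile duct markers 5 did, with KRT7 at 279 FPKM and the anion exchanger SLC4A2 at 49.7 FPKM. Of 17 mesenchymal markers 12 did, with VIM at 90.0 FPKM and COL1A1 at 15.1 FPKM. Of 7 lung markers 1 did, the factor NKX2-1 at 3.84 FPKM with SCGB1A1 next at 0.033 FPKM, and of 10 endothelial markers ERG alone did, at 0.547 FPKM, with CDH5 at 0.303 FPKM. None of the blood (12), neural (10), intestine (9) or kidney (8) markers did, the highest being SNAP25 at 0.306 FPKM and MAP2 at 0.178 FPKM among neural, CD14 at 0.278 FPKM and CD68 at 0.0869 FPKM among blood, LGR5 at 0.115 FPKM and VIL1 at 0.0064 FPKM among intestine, and LRP2 at 0.0639 FPKM and CDH16 at 0.0438 FPKM among kidney markers. Keratin reads can be shared with their pseudogenes.

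**Figure D3:**
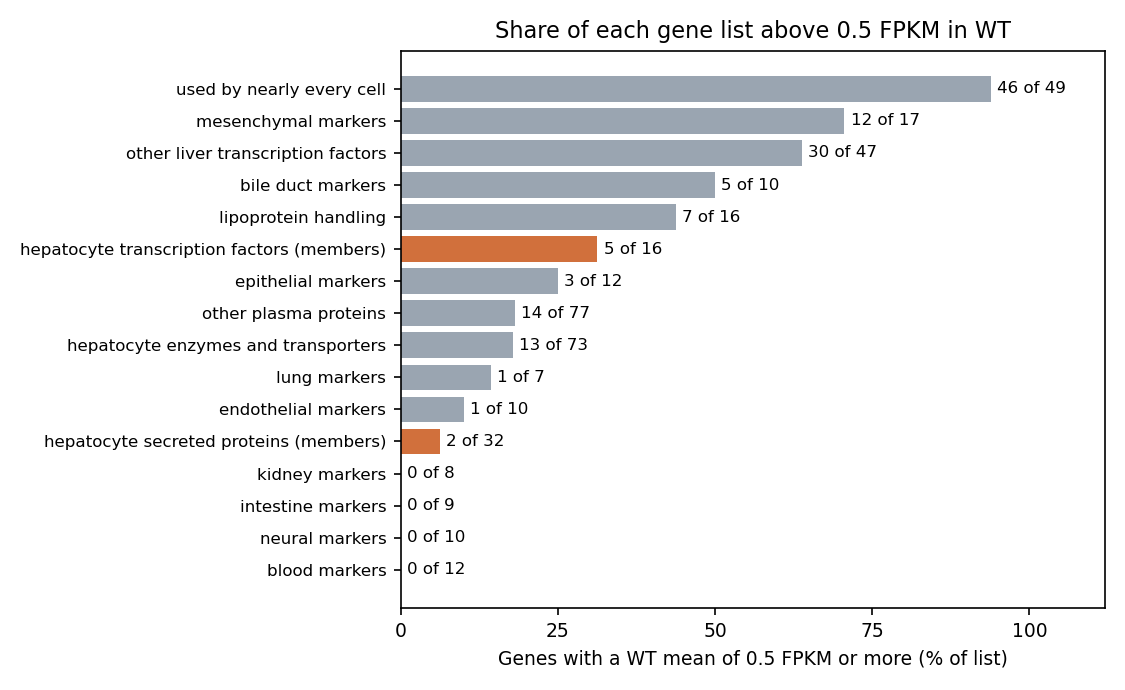
Share of each gene list with a WT mean of at least 0.5 FPKM, in percent, with the number of genes beside each bar. The hepatocyte secreted protein genes (2 of 32) and the hepatocyte transcription factor genes (5 of 16) are in orange and the other lists in grey, from 46 of 49 genes used by nearly every cell to none of the kidney, intestine, neural and blood markers.

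In the comparison of sgPARP1 with WT, PARP1 itself was at 31.8, 31.5 and 31.5 FPKM in WT and at 4.31, 4.23 and 4.39 FPKM in sgPARP1, so the targeted gene follows the labels. Values were tested as log2(FPKM + 1) with limma in the 13167 genes that averaged 0.5 FPKM or more across all libraries, with Benjamini-Hochberg adjustment over all of them and a threshold of 0.05. Of these genes, 7.96% were called, 3.52% higher and 4.44% lower. Of the 48 hepatocyte genes 7 passed the filter on low values and were tested, and 1 of the 7, CEBPA, fell. The median log2 fold change of the 7 was 0.08, beside 0.00292 over all genes tested. Fold changes are sgPARP1 over WT and, on this scale, understate the change of low genes; fewer cells making a transcript and less transcript per cell cannot be told apart.

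CEBPA (ENSG00000245848, chromosome 19, 33299934 to 33302534, minus strand, hg38) was at 3.23, 2.67 and 2.35 FPKM in WT and at 1.62, 1.60 and 1.87 FPKM in sgPARP1, from 145, 120 and 92 reads against 66, 64 and 84. All 3 sgPARP1 values lay below all 3 WT values; the groups did not overlap, in one direction or the other, for 31.1% of all genes tested. Mean FPKM fell by 38.2%, from 2.75 ± 0.45 to 1.70 ± 0.15 (SD, n = 3 each), with a log2 fold change of −0.47, a standard error of 0.10 and a 95% interval of −0.71 to −0.23 (limma, adjusted p = 0.0371). The call is a narrow one and rests on nearly every library: the adjusted p was 0.0813 without WT replicate 1, 0.106 without WT replicate 2 and 0.117, 0.0995 and 0.0645 without sgPARP1 replicate 1, 2 and 3, though 0.0437 without WT replicate 3. It was also lost when low genes were kept in the test (limma, adjusted p = 0.110), while voom, a limma test on the recovered reads, called it at adjusted p = 0.0197. An exact permutation test of 3 against 3 libraries cannot give a p below 0.1.

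The genes around CEBPA were compared next. Of 20 tested genes within 1000000 bases of it 1 was called higher and none lower (limma), with a median log2 fold change of 0.06. Its close neighbour and relative CEBPG stood at a log2 fold change of 0.03 (limma, adjusted p = 0.826). At higher levels, CEBPB was at 52.7 ± 4.8 FPKM in WT and 40.9 ± 5.4 FPKM in sgPARP1 and did not pass (log2 fold change −0.36, limma adjusted p = 0.0835), but it was called lower by voom (adjusted p = 0.0173), with a filter at 5 FPKM (limma, adjusted p = 0.0379) and without sgPARP1 replicate 3 (limma, adjusted p = 0.0374), within a range of 0.0173 to 0.210 over the alternatives. CEBPD was at 53.4 ± 2.9 and 56.5 ± 7.8 FPKM (limma, adjusted p = 0.699).

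ONECUT2 (chromosome 18, 57435374 to 57491298, plus strand) was at 3.53, 4.11 and 4.83 FPKM in WT and at 3.24, 3.40 and 2.88 FPKM in sgPARP1. The groups did not overlap, although WT replicate 1 and sgPARP1 replicate 2 were close. Its log2 fold change was −0.30 with a 95% interval of −0.54 to −0.06, which did not pass limma after adjustment (adjusted p = 0.133) but passed voom (adjusted p = 0.0304). At an unadjusted p under 0.05, where 12.3% of all genes were lower, CEBPA and ONECUT2 were the 2 lower among 5 tested factors and none was higher. Voom called the same 2 lower, against 6.86% of all genes.

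The other 3 factors did not pass and their intervals allow small changes in either direction or an increase. FOXA1 (chromosome 14, 37589552 to 37596059, minus strand) was at 4.13, 3.89 and 4.06 FPKM in WT and 4.79, 4.19 and 4.68 FPKM in sgPARP1. Each sgPARP1 value exceeded each WT value, with a log2 fold change of 0.14 and a 95% interval of −0.00117 to 0.28 (limma, adjusted p = 0.207). GATA6 (chromosome 18, 22169589 to 22202528, plus strand) was at 5.24, 4.75 and 5.09 FPKM in WT and 5.65, 4.82 and 5.73 FPKM in sgPARP1, in which the groups overlap. Its log2 fold change was 0.08, with a 95% interval of −0.09 to 0.26. RXRA (chromosome 9, 134317098 to 134440585, plus strand) was at 3.53, 2.81 and 3.04 FPKM in WT and 3.41, 3.04 and 3.71 FPKM in sgPARP1, also with overlap, and its log2 fold change was 0.09, with a 95% interval of −0.12 to 0.30.

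Neither of the 2 tested secreted protein genes passed limma, and the count was also 0 at an unadjusted p under 0.05, where 24.4% of all genes passed, and by voom, where 12.1% did. APOE (chromosome 19, 44905791 to 44909393, plus strand) was at 0.807, 0.779 and 0.524 FPKM in WT and 0.475, 0.422 and 0.485 FPKM in sgPARP1, on 30, 29 and 17 reads against 16, 14 and 18. The groups did not overlap, and the log2 fold change was −0.22 with a 95% interval of −0.47 to 0.03 (limma, adjusted p = 0.266). On the reads themselves the size was larger, at −0.59 with voom (adjusted p = 0.275). VTN was at 1.58, 1.52 and 0.907 FPKM in WT and 2.15, 1.40 and 1.59 FPKM in sgPARP1, with overlap, and at a log2 fold change of 0.22 with a 95% interval of −0.15 to 0.58 (limma, adjusted p = 0.439). In all, 4 of the 7 tested hepatocyte genes had groups that did not overlap, beside 31.1% of all genes tested.

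**Figure D4:**
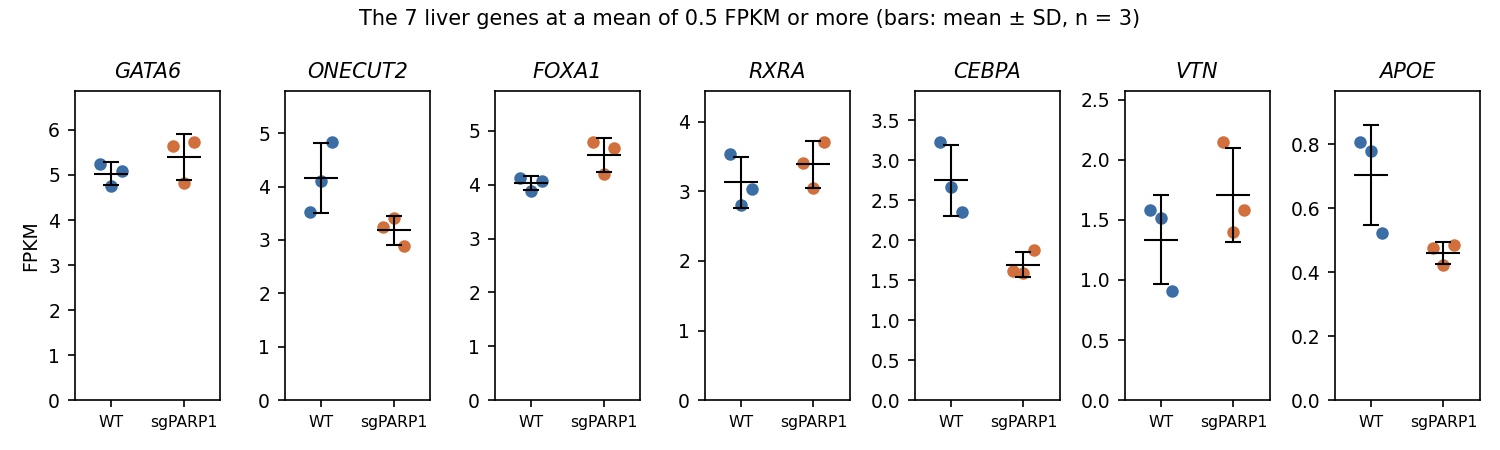
FPKM per library (linear axis from 0) of the 7 hepatocyte genes that were tested, WT in blue and sgPARP1 in orange, with mean and SD (n = 3) in black. The groups do not overlap for ONECUT2, FOXA1, CEBPA and APOE, as for 31.1% of all genes tested, and CEBPA alone passed the test.

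Hepatocyte secreted products were near absent in sgPARP1 as well. The 32 secreted or surface protein genes together had 93, 72 and 95 reads in the sgPARP1 libraries, within the span of the WT libraries at 64 to 99 reads. Their summed level was 2.15 to 2.83 FPKM in WT and 2.30 to 2.97 FPKM in sgPARP1. The 16 transcription factor genes together had 2420 to 2564 reads in WT and 2067 to 2420 in sgPARP1. As a share of each library these were 0.0145% to 0.0163% in WT and 0.0134% to 0.0142% in sgPARP1, without overlap. Their summed levels did overlap, at 18.3 to 19.8 FPKM in WT and 17.1 to 19.1 FPKM in sgPARP1. Neither total was tested. The 20 genes with reads but under the filter had too few to compare: none of them had more than 23 reads over all 6 libraries.

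Among the other liver genes 15 of 61 tested were called, 11 lower and 4 higher, beside 7.96% of all genes, with a median log2 fold change of −0.14. These lists were made with earlier results of these data known, so nothing about liver genes as a class is drawn from that share. In the plasma protein list 3 fell and 1 rose of 13 tested. PROS1 went from 7.55, 8.20 and 8.52 FPKM to 3.98, 4.19 and 3.78 FPKM, and its mean fell by 50.8% (limma, adjusted p = 0.000607), C3 fell by 44.1%, while the complement protease C1S rose 1.23-fold. Of 7 tested lipoprotein handling genes 2 fell and none rose, among them MYLIP, a ubiquitin ligase of lipoprotein uptake, which fell by 21.1% (limma, adjusted p = 0.0324). SCARB1 did not pass, at 26.4 and 23.4 FPKM. At an unadjusted p under 0.05, 2 genes of the lipoprotein list were higher and 3 lower, where 24.4% of all genes tested passed in either direction and 12.3% were lower.

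Of 28 tested further transcription factors 4 fell and 2 rose, beside 4.44% lower and 3.52% higher over all genes tested. The vitamin D receptor VDR, an RXR partner, went from 9.44, 8.57 and 9.57 FPKM to 5.75, 6.37 and 5.96 FPKM (limma, adjusted p = 0.00376). The clock output factor DBP fell by 34.4%. TBX3 is a transcriptional repressor active in early liver development. Its values went from 8.44, 8.41 and 7.96 FPKM to 5.36, 6.07 and 6.17 FPKM (limma, adjusted p = 0.00889). KLF15, a regulator of fasting metabolism, rose 1.87-fold from 0.960 FPKM. NR2F6 did not pass, at 82.6 and 72.5 FPKM. Of 13 tested enzymes and transporters 2 fell and 1 rose: the exporter ABCC2 fell by 47.4%, the uptake transporter SLCO1B3 fell from a low 0.834, 1.01 and 0.956 FPKM to 0.523, 0.403 and 0.475 FPKM (adjusted p = 0.0472), and HPD rose 1.29-fold, from 87.5, 86.0 and 79.6 FPKM to 110, 105 and 110 FPKM (limma, adjusted p = 0.00598). CPS1 and ASS1 did not pass, at 141 and 49.0 FPKM in sgPARP1. The calls of SLCO1B3, DBP, MYLIP, KLF15 and C1S did not hold throughout. Leaving out any 1 of the 6 libraries ended that of SLCO1B3 and any 1 WT library that of DBP. MYLIP's was lost without any library except WT replicate 1, KLF15's without sgPARP1 replicate 1 and C1S's without WT replicate 2. When low genes were kept in the test, the calls of SLCO1B3, DBP, MYLIP and KLF15 were lost. With a replicate block those of SLCO1B3, KLF15 and C1S were lost. SLCO1B3's was also lost with a pseudocount of 0.1 and in TPM.

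**Figure D5:**
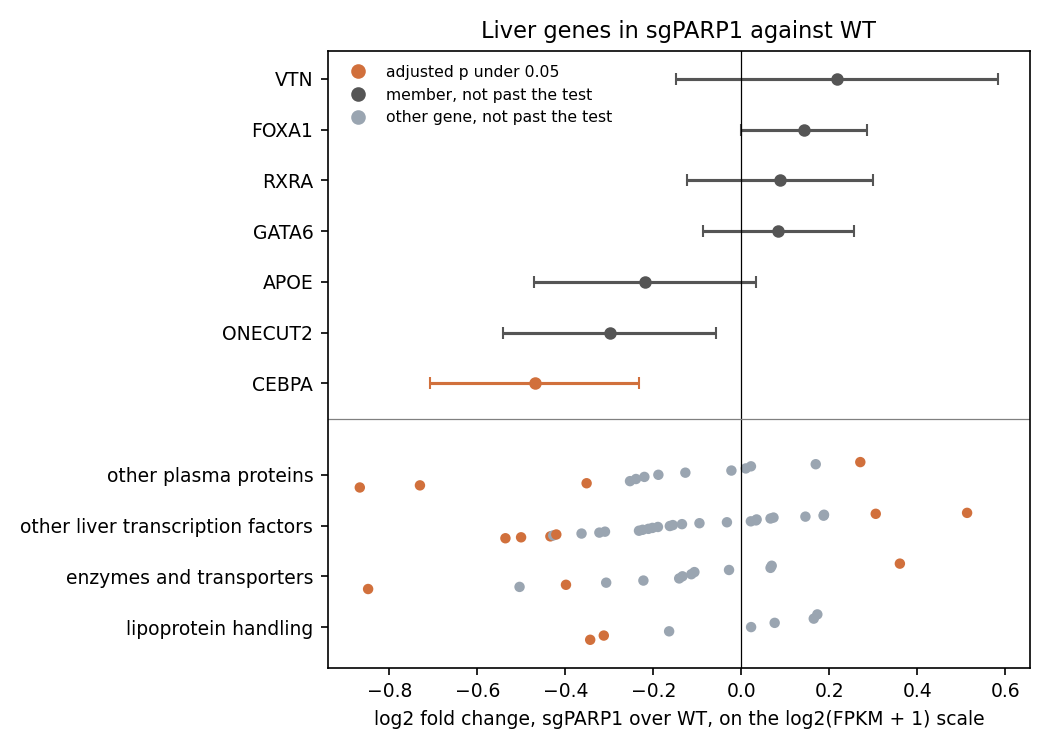
Log2 fold change of sgPARP1 over WT on the log2(FPKM + 1) scale, for the 7 tested hepatocyte genes (points with 95% intervals, above the line) and for the 61 tested genes of 4 further liver lists (points only, below it), with genes past the test in orange. CEBPA at −0.47 is the hepatocyte gene past the test, and 11 of the 15 other called genes lie below 0.

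The marker lists moved as follows beside these results, and their part in them was not tested. For scale, 4.44% of all genes tested were called lower and 3.52% higher. Summed epithelial marker levels were 519 to 577 FPKM in WT and 439 to 482 FPKM in sgPARP1, with GRHL2 listed at 0, and most of the sum is KRT8 and KRT18. Of 3 tested epithelial markers KRT8 was called lower. KRT18 was not, nor was ESRP2, at 18.2 FPKM in WT and 18.1 FPKM in sgPARP1. Summed bile duct marker levels were 330 to 359 and 294 to 326 FPKM, and most of that sum is KRT7. Of 6 tested bile duct markers 1 was called higher and none lower, with SPP1 listed at 0. Summed mesenchymal levels overlapped, at 142 to 145 and 139 to 143 FPKM, with COL1A2 and PDGFRA listed at 0, and most of the sum is VIM. Of 12 tested mesenchymal markers 3 were called lower and 1 higher (limma): the proteoglycan LUM was at 9.15 FPKM in WT and 1.04 FPKM in sgPARP1, DCN at 1.07 and 0.296 FPKM, CDH2 at 7.36 FPKM in WT with a log2 fold change of −0.26, and FN1, the one called higher, at 1.05 and 1.58 FPKM. Endothelial markers, all low and none tested, summed to 1.01 to 1.05 FPKM in WT and 0.641 to 0.740 FPKM in sgPARP1, with KDR and TIE1 listed at 0. These sums did not overlap, and neither did the epithelial and bile duct sums above or the intestine sums below. The groups did not overlap for 31.1% of all genes tested, but that share counts single genes and gives no scale for a sum. Most of the endothelial sum is ERG, at 0.547 and 0.351 FPKM, and CDH5, at 0.303 and 0.174 FPKM. By contrast, CLDN5, VWF and STAB2 had the higher mean in sgPARP1. Intestine markers, all low, summed to 0.0886 to 0.155 FPKM in WT and 0.454 to 0.832 FPKM in sgPARP1, nearly all of it LGR5 at 0.115 and 0.593 FPKM, which was under the filter and not tested, with CDX2 listed at 0. Of the 6 tested glypican and syndecan genes SDC2 and SDC4 rose and GPC1 fell, from 10.3 to 7.55 FPKM.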

How the data were processed

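RNA of 3 WT and 3 sgPARP1 libraries was made into libraries with a kit named for mRNA in the labels and sequenced, and groups and replicate numbers come from the sample titles. The authors deposited 1 table of FPKM per gene with symbols, coordinates and lengths, in which 1 line was emptied for this work. Builds named in the submitters' processing notes are hg38, GRCm38 and mm10, without saying what each was for. Aligner, counter and strand use were not given in the sources used here. GENCODE 29 shares 58260 of the IDs, 99.9% of which overlap their gene there, so coordinates are hg38.

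Multiplied by gene length, the FPKM of a library are multiples of the value of 1 read (all values under 200 reads within 0.02 of a whole read), which gave the reads. Values were tested as log2(FPKM + 1), with a pseudocount of 1, where the average over all libraries reached 0.5 FPKM, with limma 3.58.1 in R 4.3.3 (trend, Benjamini-Hochberg adjustment at 0.05), and the test was tried on simulated data. Alternatives were pseudocounts of 0.1 and 0.5, no filter, a filter at 5 FPKM, TPM, voom on the reads, a replicate block and leaving out each library.

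The members and lists were chosen with earlier results of these data known. Genes named were PARP1, members by their level, and of each further list up to 4 past the test with the largest change and the 3 (markers, 2) with the highest WT level; the low genes used by nearly every cell, relatives of the factors, MTTP, syndecans and glypicans, mesenchymal markers past the test, markers listed at 0, the promoters shown and the chromosome 6 stretch were chosen after their values were seen. Promoter sequences are from RefSeq. A few genes taken by this rule are not reported here.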

Additional observations from a re-analysis of the deposited data

How the results depend on the processing

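The number of genes changed over the whole table, 1048, was 587 when low genes were kept, 1591 with voom, 550 with a replicate block and 412 to 652 without 1 library. The 1 transcription factor gene called, CEBPA, became 0 with no filter, with a filter at 5 FPKM, which leaves GATA6 alone to test, and with the replicate block (adjusted p = 0.0914), 0 or 1 without 1 library, and 2 with voom. The count of secreted protein genes called was 0 under each alternative, with no gene left to test at 5 FPKM. The 15 other liver genes called became 9 with no filter, 10 with the replicate block, 21 with voom (4 higher and 17 lower) and 9 to 12 without 1 library. The number of the 48 genes at 0.5 FPKM or more in WT, 7, was 8 at a limit of 0.1 FPKM or in TPM and 6 at 1 FPKM. The log2 fold change of CEBPD, 0.07, ran from −0.028 without sgPARP1 replicate 3 to 0.16 without sgPARP1 replicate 2. Of the other single genes run under these alternatives, namely PARP1, the 7 tested members and the genes taken by the naming rule from the 4 further liver lists, none changed direction. Genes named outside these, markers and syndecans among them, were not run. Same-numbered libraries showed little joint deviation (correlations 0.0408, 0.0813 and −0.0262), beside −0.1008 to 0.0642 for pairs of unlike number. The sample titles link them by a number alone, and what else they share is not known. The cause of these shifts was not tested. Depth limits the genes with few reads, for which no change could be read.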
